A study of Mus musculus with 16 samples.

Results

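The mitochondrial ribosomal proteins are encoded here by 76 genes, taken as every gene on the array whose symbol begins with *Mrpl* or *Mrps* followed by a digit, out of 16593 genes in all. They were read by 110 of the 25697 probes of a mouse bead array that was hybridized with RNA of cultured keratinocytes, 4 arrays for each of 4 groups. WT-NT were untreated cultures of keratinocytes from newborn pups of strain FVBN (FVB/N), and WT-TPA were cells of the same sources after 12 h with 0.2 μM TPA, a tumor promoter of the phorbol ester class that acts through protein kinase C. Ts-NT and Ts-TPA were the untreated and TPA-treated cultures from Ts1Rhr pups, which carry an additional copy of the segment of mouse chromosome 16 from *Cbr1* to *Fam3b* and were backcrossed onto FVBN. Each culture came from 1 pup, so a group of 4 arrays stands for 4 pups. The Ts1Rhr mice came from a C57BL/6J background before the backcross.

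The mitochondrial ribosome translates the few messages encoded by mitochondrial DNA, which specify core subunits of the respiratory chain and of ATP synthase. All its proteins are encoded in the nucleus, made in the cytosol and imported. Its large subunit forms peptide bonds and its small subunit reads the message. Many of its proteins descend from a bacterial ancestor, while others are found only in mitochondria.

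Of the 76 genes, 49 encode proteins of the large subunit and 26 encode proteins of the small subunit. *Mrps36* carries the name but its protein belongs to a dehydrogenase complex, not to the ribosome. *Mrps30* and *Mrps18a* are counted with the large subunit, where their proteins sit. A single probe read 54 of the genes, a pair of probes read 14 and 3 to 5 probes read the other 8. All 76 matched the mouse gene table, on 17 chromosomes. A gene was analysed when at least 1 probe had a detection p of 0.01 or less, a comparison with the array's negative controls, on 4 or more of the 8 arrays of 1 genotype. By this filter 63 members (82.9%) remained, 40 of the large and 23 of the small subunit, against 36.5% of all genes. The probe with the highest mean signal stood for a gene, and 55 of the 63 members were detected by it on all 16 arrays (87.3%, against 63.7% of all genes that passed). The other 8 were *Mrpl16* (5 arrays), *Mrpl24* (6), *Mrps16* (13), *Mrpl39* and *Mrps25* (14 each), and *Mrps10*, *Mrps15* and *Mrps35* (15 each). Of the 13 members that did not pass, *Mrpl15*, *Mrpl35*, *Mrpl51*, *Mrpl55*, *Mrps14* and *Mrps2* were detected on some arrays. The probes of *Mrpl19*, *Mrpl21*, *Mrpl32*, *Mrpl45*, *Mrpl57*, *Mrps27* and *Mrps36* were detected on none, which speaks of these probes and not of the genes.

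Among the arrays, 83 to 88 member probes were detected in WT-NT, 79 to 86 in WT-TPA, between 77 and 80 in Ts-NT and between 72 and 82 in Ts-TPA. The untreated genotypes did not overlap in this count. Neither did they in the count over all probes, 8031 to 8876 in WT-NT and 6746 to 7822 in Ts-NT, so this is not particular to the members. The median raw signal per array, which is near background, was 156 to 172 in WT and 198 to 275 in Ts, so genotype and array background cannot be told apart in counts of detected probes or in dim members. The number of arrays limits the precision. Of the keratinocyte markers *Krt5*, *Krt14*, *Trp63*, *Perp* and *Krt10* were detected on all 16 arrays, and *Krt15* and *Krt1* on none. The summed signal of the keratinocyte markers was 57703 to 63110 in WT-NT, 54346 to 66124 in WT-TPA, between 51000 and 60550 in Ts-NT and between 40075 and 57147 in Ts-TPA, so that all Ts-TPA arrays lay below all WT-NT arrays. Of 6 melanocyte markers 5 were detected on all 16 arrays, of 8 fibroblast markers 2, and of 5 immune cell markers none on any array, and the summed signals of these lists overlapped among the 4 groups.

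Sequence words known as binding sites of factors that drive nuclear genes of mitochondria were looked for in the promoters, here the 250 bases before and 50 after each start site in RefSeq (build GRCm38.p6). Of the members, 67 have such a window and 73 windows were read. The NRF1 word GCATGCGC, on either strand, was in 11% of the member windows, 5.61% of the windows of genes that passed the filter and 2.71% of all 32851 windows. Its longer palindromic form, which has GC in front and contains the shorter word on both strands, was in 4.11%, 1.88% and 0.971%. The word CCGGAAGT of ETS factors such as GABPA was in 16.4%, 9.03% and 3.89%. The YY1 word AAGATGGC was in 16.4%, 4.78% and 2.75%. At least 1 of these words was in 29 of 73 member windows (39.7%), against 18.2% and 8.83%. The words also had places of their own: 8 of the 12 members with the YY1 word had it as written and wholly after the start (11% of member windows, 2.2% of those of genes that passed and 0.865% of all), and 6 of the 12 with the ETS word had it begin within the 40 bases before the start (8.22%, against 3.45% and 1.37%). The places are not particular to the members. Among windows of genes that passed and held the word, 141 of 306 had the YY1 word so placed and 221 of 578 the ETS word. These are matches of letters and not measured binding, and the promoter of *Mrpl38* is not among the windows. The pieces below run from 100 bases before to 30 after the start and show these places, with each word in capitals: the long NRF1 word in *Mrpl9* and the short one in *Mrpl17*, the ETS word in *Mrpl3*, *Mrpl43* and *Mrps22*, and the YY1 word in *Mrpl49*, *Mrps7* and *Mrps18a*. *Mrpl11*, the member that differed most between genotypes after TPA, is shown because its window holds none of them.
Mrpl9 (chr3:94443236-94443365, plus strand): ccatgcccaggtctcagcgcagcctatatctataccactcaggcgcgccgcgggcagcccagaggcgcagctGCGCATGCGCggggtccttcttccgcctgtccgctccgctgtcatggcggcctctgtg
Mrpl17 (chr7:105811058-105811187, minus strand): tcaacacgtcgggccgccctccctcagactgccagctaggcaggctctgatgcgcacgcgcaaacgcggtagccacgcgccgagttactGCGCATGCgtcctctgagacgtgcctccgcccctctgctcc
Mrpl3 (chr9:105053168-105053297, plus strand): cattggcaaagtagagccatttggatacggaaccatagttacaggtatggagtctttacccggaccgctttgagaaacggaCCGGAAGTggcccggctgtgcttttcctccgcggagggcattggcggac
Mrpl43 (chr19:45006413-45006542, minus strand): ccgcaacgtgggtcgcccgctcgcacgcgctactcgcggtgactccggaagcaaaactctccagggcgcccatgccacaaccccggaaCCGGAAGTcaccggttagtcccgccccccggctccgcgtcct
Mrps22 (chr9:98601650-98601779, minus strand): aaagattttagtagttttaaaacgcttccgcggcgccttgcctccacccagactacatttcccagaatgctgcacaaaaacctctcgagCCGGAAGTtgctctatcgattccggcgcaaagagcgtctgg
Mrpl49 (chr19:6057726-6057855, minus strand): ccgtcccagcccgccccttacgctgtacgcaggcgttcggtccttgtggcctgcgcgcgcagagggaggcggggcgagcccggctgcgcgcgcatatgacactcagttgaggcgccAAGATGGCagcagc
Mrps7 (chr11:115604040-115604169, plus strand): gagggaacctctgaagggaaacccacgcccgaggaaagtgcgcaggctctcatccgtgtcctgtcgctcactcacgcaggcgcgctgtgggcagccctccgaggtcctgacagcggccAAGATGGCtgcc
Mrps18a (chr17:46110904-46111033, plus strand): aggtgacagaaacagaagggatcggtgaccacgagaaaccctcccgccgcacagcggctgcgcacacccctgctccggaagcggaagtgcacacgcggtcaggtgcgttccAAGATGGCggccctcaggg
Mrpl11 (chr19:4962206-4962335, plus strand): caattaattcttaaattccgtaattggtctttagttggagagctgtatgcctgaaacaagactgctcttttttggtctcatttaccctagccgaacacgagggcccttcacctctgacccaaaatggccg

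**Figure D1:**
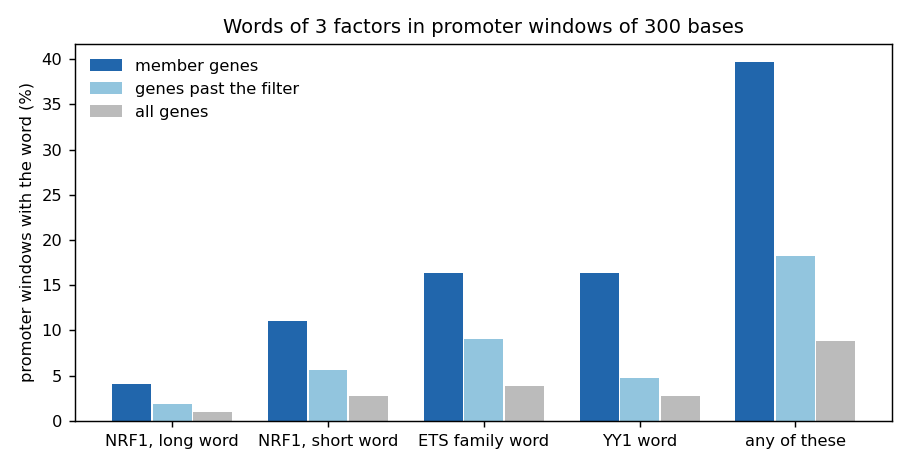
The bars give the percent of promoter windows of 300 bases (vertical axis) that hold each word on either strand, for the 73 windows of member genes, the 6398 of genes past the detection filter and all 32851. For each word the member bar is the tallest, with 39.7%, 18.2% and 8.83% for any of the words.

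Members with and without a word were then compared in expression. With TPA, averaged over both genotypes, the 10 measured members with the ETS word had a median log2 difference of −0.02 from that of all genes and the 46 without it −0.05. The 9 with the YY1 word stood at −0.00 and the 7 with the NRF1 word at 0.02. In Ts-NT relative to WT-NT the medians were 0.29 with the ETS word (6 of 10 above the median of all genes) and −0.00 without it (23 of 46). They were −0.16 with the NRF1 word (1 of 7 above) and 0.03 without it (28 of 49). These groups are small and were not tested.

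What TPA did to the members was asked first in each genotype and then over all 8 cultures, each treated array set against the untreated array of its own culture. In WT no member was called at an adjusted p below 0.05 by limma, with 161 of all 6063 genes called (2.66%, with 1.58% higher and 1.07% lower). At an unadjusted p below 0.05 there were 4 higher and 8 lower members, against 9.27% and 12.5% of all genes. In Ts no member was called (1.06% of all genes, 0.693% higher and 0.363% lower), and 0 were higher and 4 lower at the unadjusted threshold, against 5.29% and 10.1%. Over all 8 cultures 1 member fell and none rose, with 10.7% of all genes called, 267 higher (4.4%) and 381 lower (6.28%); the split of all genes was 297 and 283 with neqc and 360 and 259 with each array centred. At an unadjusted p below 0.05, 3 members were higher and 13 lower (10.4% and 18.4% of all genes). The called share of the members over both genotypes, 1.59%, was thus below that of all genes, but it rests on a single call. At the unadjusted threshold the share in either direction was 25.4%, near the 28.7% of all genes. For lower members alone it was 20.6%, against 18.4%. In whole cultures, fewer cells of a type and less RNA per cell cannot be told apart.

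*Mrpl38*, a large subunit protein without a bacterial counterpart, was the member that fell. Its log2 signal in WT-NT was 8.87, 8.50, 8.61 and 8.84 in replicates 1 to 4, and in WT-TPA 8.79, 8.15, 7.99 and 8.10. In Ts-NT it was 8.55, 8.20, 7.93 and 8.07, and in Ts-TPA 7.53, 7.58, 7.43 and 8.05. The treated array was lower in each of the 8 cultures, by 0.02 in Ts replicate 4 to 1.02 in Ts replicate 1, though treated and untreated arrays overlapped in both genotypes. The fitted change was −0.49 ± 0.14 (s.e., 8 cultures, adjusted p = 0.0434), or −0.42 once the median over all genes, −0.08, was taken off. The call is close to the threshold. It was lost without WT replicate 2, 3 or 4 and without Ts replicate 1, 2 or 3, where the change relative to all genes ran from −0.43 to −0.32, and the adjusted p reached 0.126 over the 8 cultures left out in turn. It was also lost with neqc, with each array centred, without the detection filter and without the culture as a block, and held in 6 of 16 alternatives, with adjusted p from 0.0327 to 0.163.

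Next to it stood members that did not pass. *Mrps24*, *Mrpl12* and *Mrpl20*, chosen after their values were seen, were lower with TPA in all 8 cultures like *Mrpl38*, 4 members in all, and none was higher in all 8 (5.53% and 3.3% of all genes). *Mrps24*, a protein of the small subunit head, read 10.95, 10.75, 11.22 and 10.93 in WT-NT and 10.58, 10.23, 10.61 and 10.72 in WT-TPA. In Ts-NT it was 11.17, 10.49, 11.02 and 11.36, and in Ts-TPA 10.91, 10.17, 10.83 and 10.42. All WT-TPA arrays lay below all WT-NT arrays, while the Ts groups overlapped. The change was −0.43 ± 0.13 (limma, adjusted p = 0.0534), and *Mrps24* was called in the authors' values, after normexp with quantile normalization and when the probes of a gene were averaged. *Mrpl12*, the protein of the L7/L12 stalk that contacts translation factors and that is also known to bind the mitochondrial RNA polymerase, changed by −0.44 ± 0.14 (adjusted p = 0.0660). In replicate 1 the treated array differed by −0.00 in WT and −0.09 in Ts, and the largest difference was −0.96 in WT replicate 2.

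*Mrpl14*, a conserved protein at the interface of the subunits, lay farthest above the median of all genes with TPA over both genotypes. It did not pass the test in any comparison. The signal was 9.64, 8.77, 9.39 and 9.51 in WT-NT and 9.86, 9.23, 9.78 and 10.02 in WT-TPA. It was 8.998, 9.22, 9.36 and 9.37 in Ts-NT and 9.66, 9.21, 10.08 and 9.47 in Ts-TPA. The treated array was higher in all 4 WT cultures and in 3 of 4 Ts cultures, and the groups overlapped. The change was 0.38 ± 0.13 (adjusted p = 0.0856), and *Mrpl14* was called higher in the authors' values and after normexp with quantile normalization (adjusted p = 0.0224 and 0.0225).

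**Figure D2:**
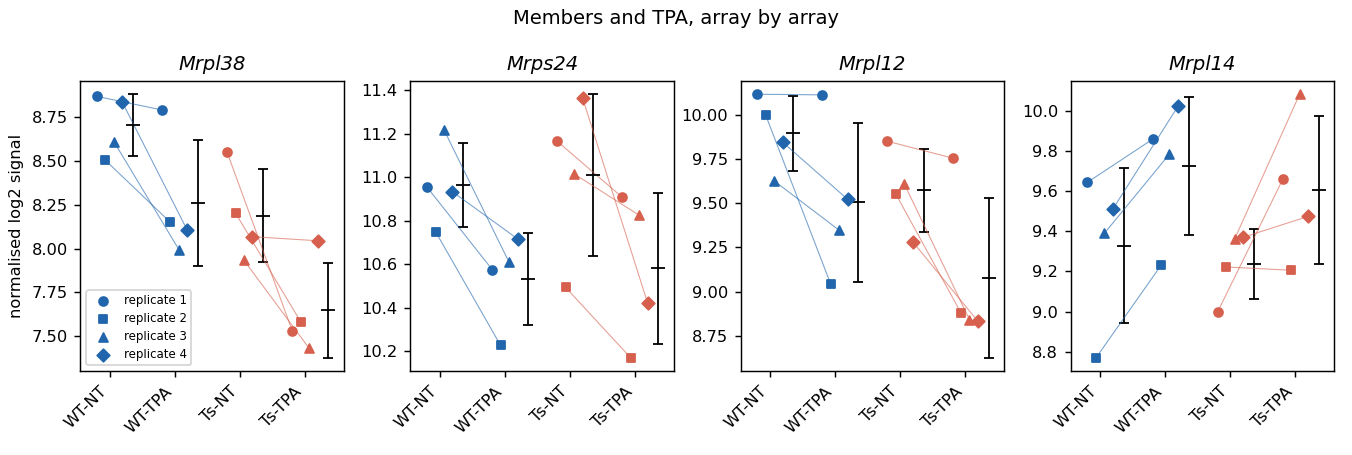
Each point is the normalised log2 signal of 1 array (vertical axis) in the 4 groups (horizontal axis), with thin lines joining the arrays of 1 culture and bars giving the mean ± s.d. of 4 arrays. *Mrpl38*, *Mrps24* and *Mrpl12* slope down in each of 8 cultures and *Mrpl14* slopes up in 7 of 8.

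In WT the members farthest below the median of all genes with TPA were *Mrpl3* (−0.44), *Mrps28* (−0.44) and *Mrpl36* (−0.43), with limma's adjusted p from 0.155 to 0.245. All 3 were lower in each WT culture. Farthest above it were *Mrpl11* (0.47), *Mrpl14* (0.46) and *Mrps11* (0.43), each higher in each WT culture, with adjusted p from 0.240 to 0.270. In all, 16 members were lower in each of the 4 WT cultures and 5 were higher (16.4% and 11.1% of all genes). In Ts the lowest were *Mrpl47* (−0.48), *Mrpl48* (−0.47) and *Mrpl34* (−0.46), and the highest *Mrps16* (0.57), *Mrpl14* (0.47) and *Mrps25* (0.41), with adjusted p from 0.299 to 0.592. In Ts, 13 members were lower in each culture and 0 were higher (14.6% and 7.13% of all genes). *Mrpl14* was the only gene at the same end in both genotypes. *Mrps11* shares its promoter with *Mrpl46*: on chromosome 7 they are transcribed head to head and their windows overlap by 141 bases. With TPA in WT *Mrps11* lay at 0.43 and *Mrpl46* at −0.02 from all genes, and over both genotypes at 0.36 and −0.01 (limma, adjusted p = 0.163 and 0.695). *Mrps11* has 2 probes past the filter, and these values are of the brighter one. Over 12 alternatives its value in WT ran from 0.15 to 0.51.

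As a family the members leaned slightly down with TPA, though not under every alternative. Their median lay −0.03 from that of all genes in WT (29 of 63 above it), −0.05 in Ts (19 of 63) and −0.07 over both (20 of 63). By culture the shift was 0.02, −0.07, −0.06 and −0.07 in WT replicates 1 to 4 and 0.06, −0.11, −0.12 and −0.17 in Ts replicates 1 to 4. It was thus below 0 in 6 of 8 cultures and above it in replicate 1 of either genotype. In Ts the median was 0.01 without replicate 4, with 32 of 63 above, and −0.14 without replicate 1, so the lean there depended on which culture was left out. Over both genotypes all 5 measured keratinocyte markers lay below the median of all genes (median −0.14) and 3 of 4 fibroblast markers above it (0.19), none of them called, and their part in the members' shift was not tested. Of the small subunit 4 of 23 members lay above the median of all genes over both genotypes (median −0.08), and of the large subunit 16 of 40 (−0.03). The subunits did not keep this order: without Ts replicate 2 the medians were −0.06 and −0.07, and in Ts alone −0.05 and −0.07. Without 1 culture 5 to 8 of the 23 lay above, and 7 with the mean over probes. Of its 9 measured proteins without a bacterial counterpart 1 lay above (median −0.19), and of its 14 conserved proteins 3 (−0.04). Under the other scalings the median over both genotypes stayed below that of all genes, at −0.05 in the authors' values, under neqc and under quantile normalization alike, where 4 to 6 of the 23 small subunit members lay above. The shift over both genotypes, −0.07, lay within the range of the shifts by culture, from −0.17 to 0.06. The s.d. of a single gene within a group was 0.30 at the median of the members and 0.36 at that of all genes. It describes single genes and not the spread of a median over the members. No list was tested.

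**Figure D3:**
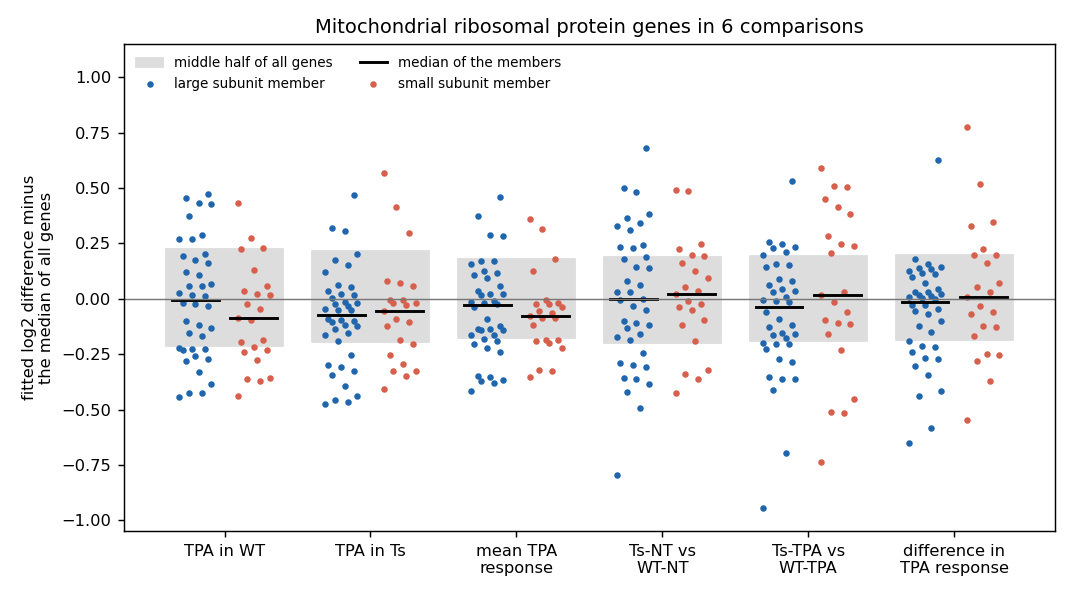
Each point is a member gene, with its fitted log2 difference minus the median of all genes on the vertical axis and the 6 comparisons along the horizontal axis. Gray boxes reach from the first to the third quartile of all 6063 genes and black lines are medians of the 40 large and 23 small subunit members. In the mean TPA response 4 of 23 small subunit points lie above 0, and the lowest points of the comparisons between genotypes are *Mrpl24*, undetected in Ts, and *Mrpl11*.

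Whether trisomic and euploid cells differed was asked in untreated and in treated cells, on all 16 arrays and without pairing. The median of all genes was −0.15 in Ts-NT relative to WT-NT and −0.20 in Ts-TPA relative to WT-TPA, and differences are given relative to it, while limma's p tests the fitted difference before it is taken off. In untreated cells no member was called (0.066% of all genes), with 2 higher and 10 lower at an unadjusted p below 0.05 (2.44% and 12.9% of all genes). After TPA none was called (0.0165%), with 1 higher and 14 lower (1.62% and 15.8%). Once the replicate number was made a block, which pairs the arrays across genotypes, 2 members were called lower in untreated cells (1.58% of all genes, 5 higher and 91 lower) and 2 after TPA (2.33%, 5 higher and 136 lower). These calls depended on the scaling, since the block gave 0 member calls in either comparison with neqc or with each array centered, where 18 and 13 genes were called untreated and 3 and 8 after TPA. The members followed the median of all genes, at 0.00 untreated (32 of 63 above) and −0.01 after TPA (29 of 63), with 0.06 in both under neqc.

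*Mrpl11*, a conserved protein at the base of the stalk where translation factors bind, showed the largest difference between genotypes among the 63 members. It read 7.97, 7.91, 8.03 and 8.20 in WT-TPA and 7.21, 6.75, 6.75 and 6.82 in Ts-TPA. Untreated it was 7.48, 7.21, 7.74 and 8.04 in WT-NT and 6.84, 6.998, 6.997 and 7.59 in Ts-NT. The treated groups were far apart, and it was the only member whose treated groups did not overlap (0.775% of all genes higher, 6.35% lower), while the untreated groups overlapped. The fitted difference after TPA was −1.15 ± 0.21 (s.e., 4 arrays each), −0.95 relative to all genes, with an adjusted p = 0.105, or 0.0168 once the replicate block was fitted. The adjusted p was 0.0208 without Ts-TPA replicate 1, whose signal stood above the other Ts-TPA arrays, and ran from 0.0168 to 0.312 over 22 alternatives, of which 4 called it. Untreated the fitted difference was −0.51 ± 0.21, before the median of all genes was taken off (limma, adjusted p = 0.330). *Mrpl11* has a single probe, on all 16 arrays above background, and lies on chromosome 19, away from the trisomic segment.

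*Mrpl24*, whose bacterial counterpart is among the first proteins to join the growing large subunit, was dim. Its signal was 6.90, 6.51, 5.51 and 6.24 in WT-NT, 5.97, 6.86, 5.10 and 5.86 in WT-TPA, 5.76, 5.26, 4.70 and 5.64 in Ts-NT and 5.73, 5.11, 4.30 and 5.06 in Ts-TPA. Replicate 3 was lowest in all 4 groups, and the genotypes overlapped. It was detected on 3 of 4 arrays of either WT group and on none of the Ts groups, so it passed the filter through WT alone and the Ts values are only a bound. For the means of untreated cells, whose arrays overlapped, the bound was 1.19-fold lower in Ts-NT, taken against the detection level of the arrays (limma, adjusted p = 0.307). After TPA no fold can be given. *Mrpl24* is 1 of the 2 members called with the replicate block in either comparison. Since a member that passed through its higher group had to differ, nothing is read from these calls, from the fold or from its p. The higher background of the Ts arrays goes with these values and its part in them was not tested.

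Some other members at the ends of the comparison of untreated cells had several probes or overlapping groups, but *Mrpl17* had neither. *Mrpl17*, a conserved large subunit protein, was 10.23, 10.39, 10.78 and 10.49 in WT-NT and 9.87, 9.62, 9.99 and 9.84 in Ts-NT. The groups did not overlap, and neither did those of *Mrpl3* and *Mrpl49*, also lower in Ts-NT, and of *Mrpl34*, higher, which makes 3 lower and 1 higher (7.26% and 1.47% of all genes). *Mrpl17* differed by −0.49 ± 0.20 relative to all genes (adjusted p = 0.213) and by −0.36 after TPA. *Mrpl3*, which sits near the peptidyl transferase center, differed by −0.39 by its brighter probe and by −0.89 by the other (adjusted p = 0.298 and 0.213), and the other probe was called lower with the replicate block. After TPA its probes pointed apart, at 0.24 and −0.61. *Mrps22*, a small subunit protein without a bacterial counterpart, differed by −0.42 (adjusted p = 0.410).

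At the upper end in untreated cells stood *Mrpl27*, *Mrpl52* and *Mrps18c*. *Mrpl27*, a conserved protein that reaches toward the peptidyl transferase center, was 7.38, 7.38, 7.55 and 8.03 in WT-NT and 7.75, 8.03, 8.84 and 7.84 in Ts-NT. The groups overlapped, with Ts-NT replicate 3 far above the rest. Relative to all genes the difference was 0.68 ± 0.28 untreated and 0.53 ± 0.28 after TPA (adjusted p = 0.448 and 0.604). A processed or related copy of *Mrpl27* is annotated as a pseudogene, as for *Mrpl23*, *Mrpl48* and *Mrps36*. The signals of *Mrpl27*, *Mrpl23* and *Mrpl48* may hold RNA of the copy, while *Mrps36* was detected on no array. *Mrpl52* differed by 0.50 and *Mrps18c* by 0.49 (adjusted p = 0.570 and 0.630).

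After TPA the members nearest to *Mrpl11* at the lower end were *Mrps10* (−0.74 ± 0.32, adjusted p = 0.211) and *Mrpl24*. *Mrps10*, a conserved protein of the small subunit head, was 7.34, 7.75, 7.72 and 7.63 in WT-TPA and 7.53, 6.82, 6.83 and 5.53 in Ts-TPA. Ts-TPA replicate 4 lay far below the rest, and the difference was −0.38 without it. At the upper end were *Mrps35* (0.59), *Mrpl27* (0.53) and *Mrps15* (0.51), with adjusted p from 0.522 to 0.604. All 3 overlapped between the genotypes.

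**Figure D4:**
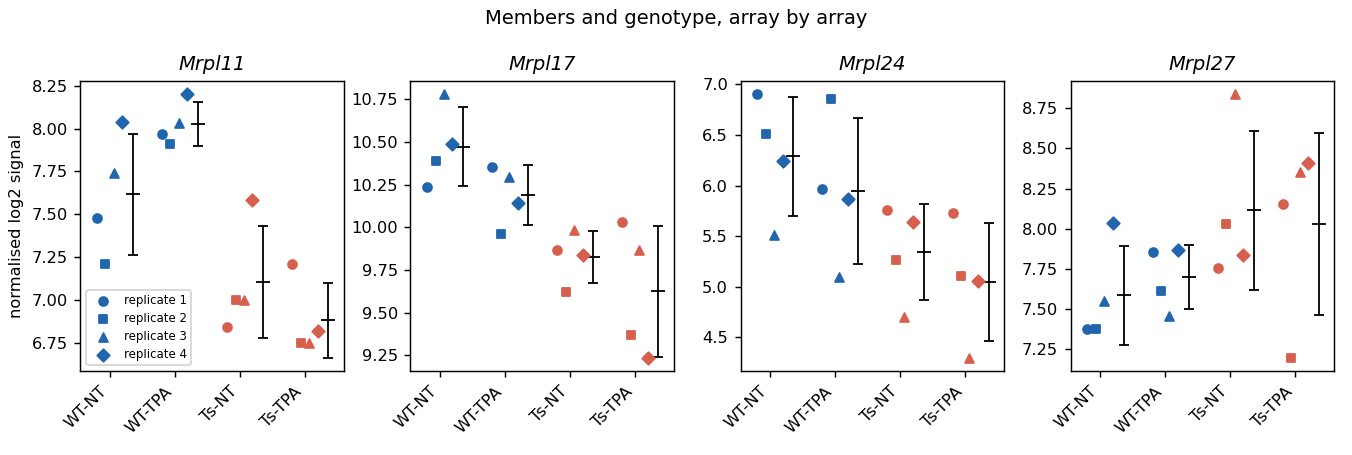
Each point is the normalised log2 signal of 1 array (vertical axis) in the 4 groups (horizontal axis), and bars give the mean ± s.d. of 4 arrays. The 4 Ts-TPA arrays of *Mrpl11*, at 6.75 to 7.21, lie below all 4 WT-TPA arrays at 7.91 to 8.20, while those of *Mrpl24* and *Mrpl27* overlap.

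*Mrpl39*, *Mrpl40* and *Mrps6* are the members on mouse chromosome 16. In GRCm38.p6 *Mrpl40* spans chr16:18872018-18876637, *Mrpl39* chr16:84718281-84735244 and *Mrps6* chr16:92058336-92112227. All 3 lie before the trisomic segment, which begins with *Cbr1* at base 93607837 and ends with *Fam3b* at base 97504936. *Mrps6*, a conserved small subunit protein, read 8.92, 8.43, 9.32 and 8.71 in WT-NT and 8.35, 8.97, 8.86 and 8.66 in Ts-NT, with overlap. Relative to all genes it differed by 0.02 ± 0.24 untreated (95% interval −0.49 to 0.53) and by 0.24 after TPA. *Mrpl40* differed by 0.24 untreated (interval −0.23 to 0.71) and 0.25 after TPA, and *Mrpl39* by 0.14 untreated and −0.21 after TPA. Their adjusted p ran from 0.408 to 0.991.

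The response to TPA was then compared between genotypes by an interaction term. No member was called, nor any of the 6063 genes (0%), and at an unadjusted p below 0.05 there were 0 higher and 2 lower members (1.78% and 2.82% of all genes, 4.59% in either direction). The members' median stood at −0.00 from that of all genes, with 31 of 63 above. *Mrpl48*, *Mrpl11* and *Mrps21* lay lowest (−0.65, −0.59 and −0.55) and *Mrps16*, *Mrpl3* and *Mrps28* highest (0.77, 0.62 and 0.52), each with an adjusted p = 1.00. *Mrpl11* was higher with TPA by 0.16 to 0.70 in the 4 WT cultures and lower in 3 of 4 Ts cultures. *Mrpl48* has 3 probes past the filter, which gave −0.47, −0.18 and 0.22 with TPA in Ts relative to all genes. *Mrps16* rested on 2 Ts cultures, with changes of 1.25, −0.68, 0.05 and 1.24. Over the 20 members with several probes, all probes lay on the same side of the median of all genes for 11 in the mean TPA response and for 8 in the difference.

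Genes that work with the mitochondrial ribosome were described from lists. In the mean TPA response, where 4.4% of all genes were called higher and 6.28% lower, 2 of 11 measured assembly factors fell: *Dhx30*, an RNA helicase of mitochondrial RNA granules (−0.61 ± 0.15, adjusted p = 0.0253), and *Rbfa*, which helps small subunit RNA to mature (−0.48 ± 0.14, adjusted p = 0.0446). *Qrsl1*, a subunit of the enzyme that makes mitochondrial glutaminyl-tRNA, fell by 0.46 ± 0.13 (adjusted p = 0.0422), alone among 12 measured aminoacyl-tRNA enzymes. *Gabpa*, the DNA-binding subunit of an ETS factor that drives many nuclear genes of mitochondria, rose by 0.52 ± 0.13 (adjusted p = 0.0257), alone among 10 regulators of mitochondrial biogenesis. With 1 gene called of 12 and of 10, these last lists are near the share of all genes. The called list genes were not put through the alternatives. *Rbfa* and *Qrsl1* lie as close to the threshold as *Mrpl38*, whose call was lost in most of them. None of 9 translation factors was called. In the mean TPA response *Tufm* had the lowest p (−0.38 ± 0.12, limma, adjusted p = 0.0668, detected on all 16 arrays). Over the 6 comparisons the lowest unadjusted p was that of *Gfm2*, the factor for ribosome recycling. It was in Ts-TPA relative to WT-TPA (limma, adjusted p = 0.180, detected on 4 of 16 arrays). With so few arrays *Gfm2* passed the filter through 1 genotype alone, so nothing is read from its p. None of the 2 measured mitochondrial ribosomal proteins with other symbols, *Dap3* and *Chchd1*, was called.

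For comparison, 67 nuclear subunits of oxidative phosphorylation and 53 cytosolic ribosomal proteins were measured and none was called in any of the 6 comparisons. Of the oxidative phosphorylation subunits *Ndufa5*, of complex I, had the lowest unadjusted p, in Ts-NT relative to WT-NT (−0.77 ± 0.22, limma, adjusted p = 0.188). Of the cytosolic ribosomal proteins it was *Rpl34*, of the large subunit, in Ts-TPA relative to WT-TPA (−0.70 ± 0.18, adjusted p = 0.137). Both values are fitted differences and are not relative to all genes. The adjusted p of *Rpl13a* was lower, in the mean TPA response (fitted −0.42 ± 0.14, adjusted p = 0.0847). In the mean TPA response the medians of these lists were 0.02 each from that of all genes, with 35 of 67 and 29 of 53 above it, against 20 of 63 members. In the difference in TPA response their medians were −0.13 (16 of 67 above) and −0.17 (14 of 53 above), while the members stood at −0.00. The medians are descriptions and the lists were not tested against each other.

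**Figure D5:**
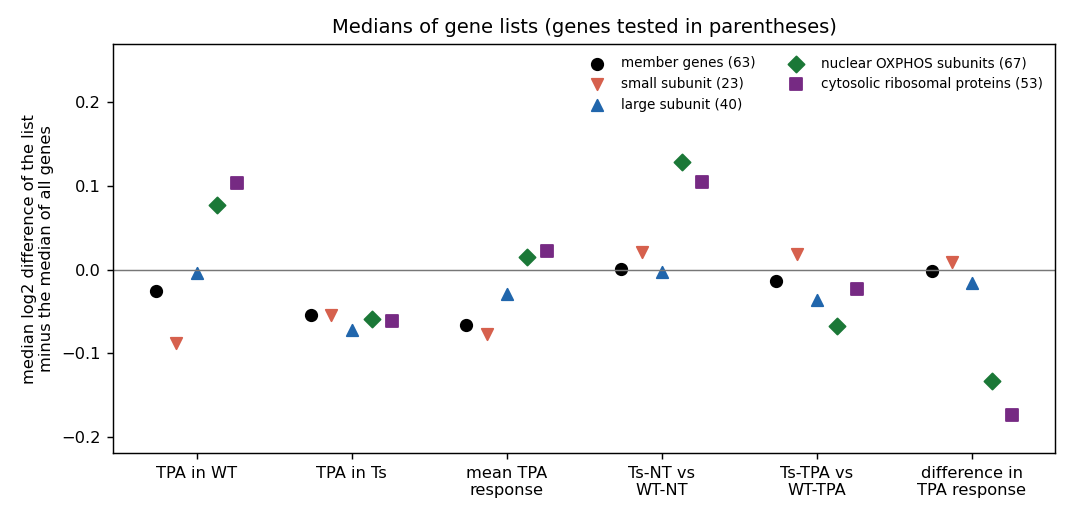
Each point is the median log2 difference of a gene list minus that of all genes (vertical axis) in 1 of 6 comparisons (horizontal axis), for the 63 members, their 23 small and 40 large subunit genes, 67 OXPHOS subunits and 53 cytosolic ribosomal proteins. The OXPHOS and cytosolic ribosomal lists reach −0.13 and −0.17 in the difference in TPA response, where the members stay at −0.00.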

How the data were processed

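RNA of 8 keratinocyte cultures, each untreated and with TPA, was hybridized to 16 Illumina MouseRef-8 v2.0 arrays. The authors deposited the raw signal intensity of each probe, with neither background subtraction nor normalization, and its detection p-value. They also deposited log2 values after a variance stabilizing transformation, which served as an alternative. For the scanner software and the versions of the authors' tools, the sources used here give none.

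Raw signals were transformed here with an affine asinh model of the same kind, written in R 4.3.3, which correlated at 0.958 to 0.964 with the authors' log2 values. Probes of a gene were kept and represented as the report states. Linear models were fitted to all kept probes with limma 3.58.1 and moderated by empirical Bayes, and p was adjusted over all 8317 by Benjamini-Hochberg at 0.05. A gene was called if any of its probes passed. The TPA comparisons had the culture as a block, since the methods pair treated and untreated cells of a source, and the genotype comparisons had none. The pairing was checked by the correlation of deviations from group means. Between genotypes same-numbered arrays correlated at 0.52, 0.32, 0.36 and 0.29 untreated and 0.57, 0.54, 0.34 and 0.24 after TPA, so the numbers were taken to pair the arrays and block values are given where they changed a call. Within WT the correlations were 0.41, 0.45, 0.45 and 0.19 and within Ts 0.31, 0.19, 0.24 and 0.07. For replicate 4 the check did not bear out each pair. The highest correlation with another number was 0.249 against 0.238 between genotypes after TPA. It was 0.100 against 0.067 within Ts and 0.190 against 0.192 within WT. The labels do not say what a replicate number shares across genotypes. The fits were tested on simulated data.

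Named members are those called, the 3 farthest above and below the median of all genes in each comparison but the mean TPA response, those on chromosome 16 and those detected on no array, plus up to 3 called genes, or the lowest p, of each related list. Alternatives were neqc, normexp with quantile normalization, the authors' values, centering of each array, other filters, the mean over probes, other blocks (statmod 1.5.0) and each array or culture left out. Replicate-block fits under the other scalings were added after seeing the data. The members and lists were chosen with earlier results of these data known. Promoters are from RefSeq.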

Additional observations from a re-analysis of the deposited data

Results flagged for a closer look

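In 104 groups of 4 arrays, 4 held an array far from the other 3 by Dixon's ratio of gap to range, where chance gives about 1 in 20. *Mrpl11* was 7.21 in Ts-TPA replicate 1 and 6.75 to 6.82 in the other Ts-TPA arrays. *Mrpl47* was 8.14 in WT-NT replicate 2 and 7.31 to 7.43 in the others. *Mrpl34* was 8.20 in Ts-NT replicate 1 and 8.11 to 8.12 in the others, a narrow range. *Mrps16* was 5.75 in WT-TPA replicate 3 and 6.44 to 6.54 in the others.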

How the results depend on the processing

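In the mean TPA response 1 member was called, against 0 with neqc, with each array centered, without the detection filter or without the replicate block, 2 with the mean over probes (*Mrpl38* and *Mrps24*), 4 in the authors' values or after quantile normalization (these and, higher, *Mrpl14* and *Mrpl33*), and 0 to 2 without 1 culture (without Ts replicate 1, *Mrpl12* and *Mrps26*). Ts-NT against WT-NT gave 2 member calls with the replicate block (*Mrpl24* and *Mrpl3*, lower), 2 with the block and quantile normalization (*Mrpl3* lower and *Mrpl13*, by its dimmer probe, higher), 1 with the block and the authors' values (*Mrpl13*, higher) and 0 with the block and neqc or centering. Ts-TPA against WT-TPA gave 1 without the filter, 2 with the replicate block, 1 with the block and the authors' values, 0 with the block and neqc, quantile normalization or centering, and 0 to 1 without 1 array. The block scalings were chosen after seeing the data. The block changed no other member call.

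The members' median relative to all genes in TPA in WT was −0.0853 without the filter and −0.0862 to −0.0156 without 1 culture. In TPA in Ts it was −0.131 without the filter and −0.137 to 0.00952 without 1 culture. In Ts-NT against WT-NT it was 0.0590 with neqc, with or without the replicate block, and −0.14 without the filter. In Ts-TPA against WT-TPA it was −0.17 without the filter, and in the difference in TPA response −0.0833 (without Ts replicate 3) to 0.0108 without 1 culture. *Mrps6* turned to −0.11 in untreated cells without the filter, and without 1 array ran from −0.11 to 0.20 untreated and from −0.0194 to 0.335 after TPA. The cause of these shifts was not tested.

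Over all genes, TPA in WT called 161 genes, 307 after quantile normalization, 107 with the mean over probes, 23 without the block and 20 to 283 without 1 culture. In Ts it called 64, and 122 after quantile normalization, 107 with arrays centered, 26 without the block and as few as 24 without 1 culture. The mean response called 648, and 323 without the filter, 242 without the block and as few as 307 without 1 culture. Centering changed the split in WT from 96 higher and 65 lower to 101 and 38. Ts-NT against WT-NT called 4 genes, and 0 to 96 under the alternatives. Ts-TPA against WT-TPA called 1, and 0 to 141. The small number of arrays and the low signal of the dim members over background limit these values.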
